A study of Mus musculus with 6 samples.

Results

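Expression of 38 genes of glycolysis and pyruvate metabolism was compared between 3 mouse pluripotent cell lines on 6 bead arrays. The genes cover glucose uptake, every enzyme step from glucose to lactate, and lactate and pyruvate transport. They also cover the pyruvate dehydrogenase complex with its kinases and phosphatase, and Fbp1, Fbp2 and Pck2 of the reverse path to glucose. A probe belonged to a gene when the gene name given in the array table equalled the member's symbol ignoring case, or, failing that, when the symbol stood as a whole word among the table's synonyms. Under this rule 35 of the 38 genes had at least 1 probe, with 56 probes of the 45281 on the array. Hk2 (a hexokinase), Ldhb (a lactate dehydrogenase subunit) and Pdp1 (a pyruvate dehydrogenase phosphatase) had none. A probe was kept when its detection p was under 0.05 on at least 2 of the 6 arrays, which left 42 probes for 29 genes. The 6 genes with no kept probe were Pfkfb1 and Pfkfb3 (regulators of glycolytic flux), Pdk2 (a pyruvate dehydrogenase kinase), Slc16a1 (a lactate transporter), Pck2 (the mitochondrial enzyme that makes phosphoenolpyruvate) and Fbp1 (the liver form of fructose bisphosphatase). None of the probes of 5 of them was detected on any array, and Fbp1 was detected on 1 array, low iPS replicate 1.

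The 3 lines were embryonic stem (ES) cells, the PB-Oct4.2A.cherry iPS-/- line (called iPS here) and a line that carries the same construct name with the mark (low), clone cl2.5, also iPS-/- (low iPS here). The labels give the strain of all of them as B6 and do not say which gene the minus signs refer to. All 3 lines, ES cells included, grew in medium with knockout serum replacement, LIF (a cytokine that keeps mouse stem cells undifferentiated), 3 µM CHIR99021 (a GSK3 inhibitor) and 1 µM PD0325901 (a MEK inhibitor). Each line has 2 arrays, which the submitters describe as biological replicates, so every p-value below measures the spread between arrays of single lines. The labels give no purpose for these comparisons beyond the lines themselves.

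Glycolysis breaks glucose down to pyruvate in the cytosol and yields ATP without oxygen. Lactate dehydrogenase turns pyruvate into lactate, which is exported, or the pyruvate dehydrogenase complex turns it into acetyl-CoA for the mitochondria. Pyruvate dehydrogenase kinases switch that complex off and its phosphatases switch it on again. Mouse pluripotent cells are known for active glycolysis, and many glycolytic genes are textbook targets of hypoxia-inducible factor (HIF). ACGTG is a common form of the core letters that HIF binds.

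The promoters of 5 genes are printed here. Of these, 2 passed a test (Fbp2 and Pdk1), and the others (Ldha, Pgk1 and Eno2) are among the many members that differed between arrays of the same line. They are not the widest as a set. The mean log2 gap between arrays of a line was 0.49 for Ldha and 0.64 for Pgk1. It was 0.92 for Aldoc and 0.72 for Pfkp, whose windows are not printed and hold no ACGTG. Each is the 250 bases before a RefSeq transcript start on GRCm38.p6, written 5′ to 3′ on the gene's strand. Capitals mark ACGTG on either strand, where CACGTG holds it on both strands at once. Where a gene has several starts, the first is shown, and the second windows of Ldha and Pdk1 hold no ACGTG.
Fbp2, chr13:62858401-62858650, minus strand: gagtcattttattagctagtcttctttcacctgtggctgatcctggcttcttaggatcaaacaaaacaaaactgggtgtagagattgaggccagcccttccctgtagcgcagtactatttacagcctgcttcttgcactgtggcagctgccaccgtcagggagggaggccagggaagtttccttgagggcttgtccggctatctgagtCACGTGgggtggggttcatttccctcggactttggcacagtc
Pdk1, chr2:71872974-71873223, plus strand: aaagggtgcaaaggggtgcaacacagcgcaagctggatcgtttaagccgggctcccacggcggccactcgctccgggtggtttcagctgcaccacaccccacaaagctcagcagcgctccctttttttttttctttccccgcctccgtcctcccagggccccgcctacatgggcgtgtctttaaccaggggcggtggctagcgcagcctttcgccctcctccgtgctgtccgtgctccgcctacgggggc
Ldha, chr7:46845554-46845803, plus strand: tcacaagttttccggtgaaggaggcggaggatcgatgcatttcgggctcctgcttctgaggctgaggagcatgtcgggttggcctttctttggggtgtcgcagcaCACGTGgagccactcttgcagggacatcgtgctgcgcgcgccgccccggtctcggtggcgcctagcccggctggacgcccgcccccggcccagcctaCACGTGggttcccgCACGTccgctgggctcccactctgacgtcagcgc
Pgk1, chrX:106186850-106187099, plus strand: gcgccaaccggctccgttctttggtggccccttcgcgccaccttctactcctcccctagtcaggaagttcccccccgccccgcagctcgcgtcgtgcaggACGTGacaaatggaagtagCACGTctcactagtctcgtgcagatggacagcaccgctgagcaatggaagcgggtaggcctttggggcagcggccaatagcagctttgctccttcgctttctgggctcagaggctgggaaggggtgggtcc
Eno2, chr6:124769674-124769923, minus strand: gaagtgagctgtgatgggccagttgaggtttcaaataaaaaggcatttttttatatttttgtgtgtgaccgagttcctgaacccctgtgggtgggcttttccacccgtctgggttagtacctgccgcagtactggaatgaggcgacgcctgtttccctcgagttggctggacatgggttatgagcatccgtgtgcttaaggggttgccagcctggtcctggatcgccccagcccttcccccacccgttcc
The Fbp2 window holds 1 CACGTG and the Ldha window 2 of them plus a further ACGTG. The Pgk1 window holds ACGTG 2 times, and the Pdk1 and Eno2 windows have neither motif in these letters. Other forms of the core were not searched, and whether HIF or any other protein binds these sites was not tested. RefSeq promoters were matched for 36 of the 38 genes, 55 windows in all. ACGTG was in 36.4% of those windows and in 16.6% of all 32851 RefSeq promoter windows of the same length. CACGTG was in 12.7% of the members' windows and in 6.02% of all windows. These shares count windows, so close starts of the same gene, as in Aldoa, can count a shared site again. The windows of all genes were not matched to those of the members for base content. Whether the shares differ was not tested.

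The arrays were alike in overall signal, with a median deposited intensity between 87.3 and 96 and between 35.9% and 37.5% of probes detected. Pou5f1, the pluripotency factor also called Oct4, lay at 4584 and 5054 on the ES arrays, 1837 and 2150.1 on those of iPS, and 593 and 538 on those of low iPS. It was lower in low iPS than in ES by 3.27 on the log2 scale (SE 0.17, limma adjusted p = 0.00061) and in iPS than in ES by 1.20 (adjusted p = 0.0302). Whether the probe also reads the construct's transcript was not tested. All 10 pluripotent-cell markers were detected, while 6 of 9 fibroblast and feeder markers, Col1a1, Col3a1 and Dcn among them, were detected on no array. Col1a2 and Thy1 were detected on 4 arrays each and Acta2 on 5. Acta2 lay at 185 and 1037 (ES), 273 and 166 (iPS) and 87 and 86 (low iPS). Its low iPS against ES difference was -3.83 (SE 0.86, limma adjusted p = 0.0554), a call with the replicate number as a block. In bulk RNA of this kind, fewer cells of a type and less RNA per cell cannot be told apart.

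Of the 29 tested genes, Fbp2 alone was higher and Pdk1 alone was lower in low iPS than in ES at a limma adjusted p under 0.05, taken over all 12631 genes. Over all genes 2.26% were called higher and 1.91% lower, 4.16% in either direction. Against iPS, low iPS had higher Fbp2 and no member called lower, with 1.16% of all genes called higher and 1.08% lower, 2.24% in either direction. With the replicate number as a block 3 members passed there, against 5.14% of all genes. Between iPS and ES no member passed, with 0.808% of all genes called. The members' counts of 1 in a direction, or 0, are near these shares. Between iPS and ES 6 members (20.7%) had an unadjusted limma p under 0.05, against 14.1% of all genes. The members' share was 20.7% against 19.5% of all genes in low iPS against ES. In low iPS against iPS it was 13.8% against 16.2%. The 3 comparisons share arrays, since each line enters a pair of them.

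**Figure D1:**
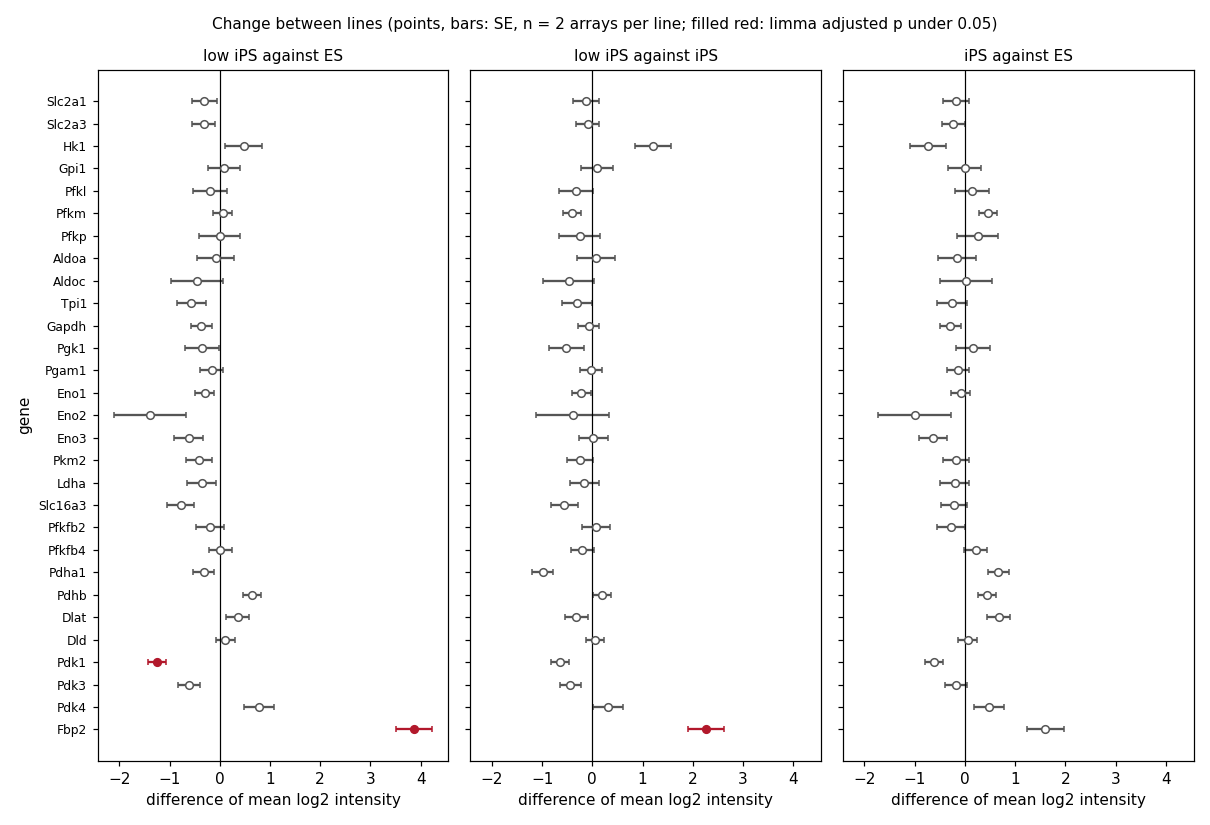
Difference of mean normalised log2 intensity (horizontal axis) for the 29 tested genes (vertical axis) in each pair of lines. Points are differences with SE bars from 2 arrays per line, and the filled red points are the calls, Fbp2 in both comparisons with low iPS and Pdk1 in low iPS against ES.

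Fbp2 encodes the muscle form of fructose bisphosphatase, which runs the phosphofructokinase step backwards towards glucose. Its deposited intensity was 907 and 676 for low iPS, 183 and 229 for iPS, and 136 and 101 for ES. The low iPS arrays were the highest, the iPS arrays lay between, and the ES arrays were the lowest, with detection on only 1 of the 2 ES arrays. No line overlapped another, as was the case for 50.5% of all genes between low iPS and ES, 48.8% between low iPS and iPS and 42.2% between iPS and ES. Fbp2 was 14.6-fold higher in low iPS than in ES, a log2 difference of 3.87 (SE 0.36, 95% interval 3.01 to 4.73, limma adjusted p = 0.00319). The call against ES held under all 15 alternative settings, with log2 differences from 2.70 (no background correction) to 4.45 (without ES replicate 1). Against iPS, Fbp2 was 4.81-fold higher in low iPS, 2.27 on the log2 scale (SE 0.36, adjusted p = 0.0292). That call was lost without iPS replicate 1 (adjusted p = 0.177), iPS replicate 2 (0.0610), low iPS replicate 1 (0.178) or low iPS replicate 2 (0.165). It was also lost without the detection filter (0.124). The iPS against ES difference of 1.60 (SE 0.36) did not pass (adjusted p = 0.120), and it passed only without ES replicate 1, where it was 2.18 (adjusted p = 0.0213).

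The few tested markers of skeletal muscle and of liver and gut, tissues known for fructose bisphosphatase, gave no call between the lines. Of 7 skeletal muscle markers, 2 were tested. Des, an intermediate filament gene, was detected on all 6 arrays, at 179 and 255 (ES), 125 and 197 (iPS) and 213 and 181 (low iPS), and Myog on 4 arrays. Neither passed in any comparison. Myod1, Ckm and Tnnt3 were detected on no array, and the summed normalised level of the list was 155 to 205 in ES, 113 to 158 in iPS and 148 to 169.9 in low iPS. Of 6 liver and gut markers, 4 were never detected and only 1, G6pc, was tested, with a normalised level of 29.4 to 51.0 on all arrays. Of 8 extraembryonic endoderm markers, 5 were tested. Gata6 and Dab2 were called higher in low iPS than in both other lines, by 2.28 and 2.18 against ES. Sparc (1.03 against ES, adjusted p = 0.0542), Lama1 (0.38) and Sox7 (-0.02) were not called, and Gata4, Sox17 and Foxa2 were detected on no array. The summed level of the tested markers, most of it Sparc, was 4079 and 4225 on the low iPS arrays, against 1847 to 2215 in ES and 1981 to 2797 in iPS. The part of these markers in the Fbp2 result was not tested.

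**Figure D2:**
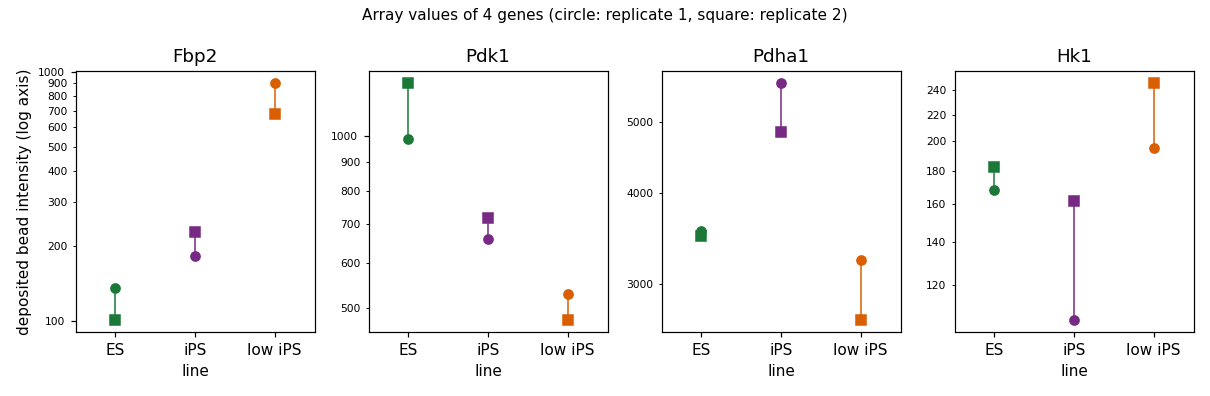
Deposited bead intensity (vertical log axis, separate for each gene) of Fbp2, Pdk1, Pdha1 and Hk1 on both arrays of each line (horizontal axis; circle replicate 1, square replicate 2). Fbp2 stands at 907 and 676 in low iPS against at most 229 elsewhere, and Pdk1 is highest on the ES arrays at 987 and 1239.

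Pdk1 encodes a pyruvate dehydrogenase kinase and is a textbook HIF target. It lay at 987 and 1239 on the ES arrays, 659 and 719 on those of iPS, and 529 and 476 on those of low iPS. The order ES, iPS, low iPS held without overlap between lines, and the shares of all genes without overlap are those given for Fbp2. Low iPS was 2.39-fold lower than ES, a log2 difference of -1.26 (SE 0.18, adjusted p = 0.0139). The differences of low iPS from iPS (-0.64, adjusted p = 0.132) and of iPS from ES (-0.62, adjusted p = 0.205) did not pass. The call against ES was lost without ES replicate 2 (adjusted p = 0.0688), low iPS replicate 1 (0.0892) or low iPS replicate 2 (0.135), and the log2 difference stayed between -1.38 and -1.14 whichever array was left out.

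The other kinases gave no call. Pdk3, an X-linked member of the family, lay at 550.4 and 481 for low iPS, 626 and 619.9 for iPS, and 637 and 891 for ES, and low iPS was 0.61 below ES on the log2 scale (SE 0.21, adjusted p = 0.172). Pdk4, the kinase known for induction by fasting, lay at 141 and 163 (ES), 146 and 212 (iPS) and 187 and 248 (low iPS). Its difference had the opposite sign, 0.79 (SE 0.30, adjusted p = 0.209). The 3 kinases thus did not share a sign between low iPS and ES.

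Pdha1, the X-linked catalytic subunit of the pyruvate dehydrogenase complex, lay at 3542 and 3492 on the ES arrays, 5668 and 4851 on those of iPS, and 3236 and 2678 on those of low iPS. Both iPS arrays were above all others. Low iPS was 0.99 below iPS on the log2 scale (SE 0.20, adjusted p = 0.0601), which became a call with the replicate number as a block (adjusted p = 0.0250). The iPS against ES difference was 0.67 (SE 0.20, adjusted p = 0.224). Pdhb, the partner subunit, has 3 kept probes. The brightest lay at 2190.3 and 1809.6 for low iPS, 1482 and 1690.2 for iPS, and 1232 and 1332 for ES, a low iPS against ES difference of 0.64 (SE 0.17, adjusted p = 0.0993), while the others gave -0.04 and -0.07. The brightest probe passed with no background correction (adjusted p = 0.0400). The Pdhb probes therefore disagree. Dlat, the acetyltransferase core, lay at 158 and 144 (ES), 197 and 184 (iPS) and 184 and 167 (low iPS), with iPS 0.67 above ES (SE 0.23, adjusted p = 0.255). Dld, the dehydrogenase that several such complexes share, lay at 103 and 107 on the ES arrays, 105 and 106 on those of iPS, and 111 and 111 on those of low iPS, near background on all arrays. Its differences were all at most 0.11 in size on the log2 scale.

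Glucose enters through the transporters Slc2a1 and Slc2a3. Slc2a1 lay at 7173 and 7483 for low iPS, 5579.7 and 9410.02 for iPS, and 7056 and 10252 for ES. Slc2a3 lay at 12696 and 17678 (ES), 9289.8 and 15947 (iPS) and 12619 and 13208 (low iPS). After normalisation both transporters were lower on each low iPS array than on each ES array, while iPS overlapped both lines. Arrays of low iPS and ES did not overlap for 50.5% of all genes. Neither transporter passed in low iPS against ES, at -0.31 for Slc2a1 (limma adjusted p = 0.583) and -0.32 for Slc2a3 (0.508). For both genes replicate 2 was the higher array of each line. Hk1, the hexokinase that traps glucose in the cell, lay at 169 and 182 on the ES arrays, 106 and 162 on those of iPS, and 196 and 246 on those of low iPS. On iPS replicate 1 it was near background, with a detection p of 0.019. It was 1.22 higher in low iPS than in iPS on the log2 scale (SE 0.36, adjusted p = 0.152). That was a call with the replicate number as a block (adjusted p = 0.0483) and without iPS replicate 2 (0.0450).

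The enzymes of the upper part of the pathway gave no call. Gpi1, the isomerase, lay at 5632 and 7508 for low iPS, 4017 and 7459 for iPS, and 4488 and 7436 for ES. Among the phosphofructokinase subunits, Pfkl lay at 2500.1 and 4783 (ES), 2651 and 4804 (iPS) and 2921 and 3454 (low iPS). Pfkp lay at 882 and 1849 on the ES arrays, 978 and 2008 on those of iPS, and 1224 and 1343 on those of low iPS. For all 3 genes replicate 2 was the higher array of each line, and the lines overlapped. Pfkm, the muscle-type subunit, lay at 1472 and 1698 for low iPS, 1702 and 2109.6 for iPS, and 1493 and 1529.8 for ES, and iPS was 0.46 above ES (SE 0.18, adjusted p = 0.320) while low iPS was 0.41 below iPS (SE 0.18, adjusted p = 0.344). The bifunctional regulators of this step, Pfkfb2 and Pfkfb4, lay between 159.8 and 223 on all arrays. Aldoa, the aldolase of most tissues, lay at 7089 and 11965 (ES), 5501 and 12307 (iPS) and 8082 and 11019.5 (low iPS). Aldoc, the brain-type aldolase, lay at 594 and 1515 on the ES arrays, 562 and 1410.04 on those of iPS, and 683 and 729.7 on those of low iPS. In Aldoc the ES and iPS arrays spanned a wider range than the low iPS arrays did. Tpi1, the triose isomerase, lay at 8163 and 8906 for low iPS, 7533 and 12191 for iPS, and 8723 and 16046 for ES, with low iPS 0.56 below ES (SE 0.29, adjusted p = 0.355).

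The enzymes from glyceraldehyde phosphate to lactate gave no call either. Gapdh, often used as a reference gene, lay at 16543 and 22671 (ES), 13063 and 17939.9 (iPS) and 14759 and 18083 (low iPS), with low iPS 0.36 below ES (SE 0.21, adjusted p = 0.410). Pgk1, the first ATP-yielding kinase, lay at 5325 and 7792 on the ES arrays, 4887 and 9679 on those of iPS, and 4303 and 6553 on those of low iPS, with low iPS 0.52 below iPS (SE 0.34, adjusted p = 0.527), while its other kept probe gave 0.35. Pgam1, the mutase, lay at 1309 and 1454 for low iPS, 1044 and 1586 for iPS, and 1345 and 1743 for ES. Eno1, the common enolase, lay at 19727 and 25461 (ES), 17703 and 24875 (iPS) and 18963 and 20253 (low iPS), with low iPS 0.30 below ES (SE 0.19, adjusted p = 0.442). Eno3, the muscle enolase, lay at 226 and 382 on the ES arrays, 193 and 206 on those of iPS, and 206 and 224 on those of low iPS, with low iPS 0.62 below ES (SE 0.29, adjusted p = 0.298). Eno2, the neuronal enolase, lay at 287 and 277 for low iPS, 206 and 537 for iPS, and 318 and 1294 for ES. ES replicate 2 stood far above the other arrays, and the low iPS against ES difference of -1.39 had an SE of 0.72 (adjusted p = 0.352). The iPS against ES difference of Eno2, -0.998, turned to 0.10 without ES replicate 2. Among the tested members, Eno2 had the widest gap between arrays of a line in ES and in iPS. Pkm2, pyruvate kinase, lay at 9441 and 14709 (ES), 8035 and 13002 (iPS) and 8995 and 9963 (low iPS). Ldha, which makes lactate, lay at 12383 and 22304 on the ES arrays, 11133 and 17571 on those of iPS, and 12788 and 15648 on those of low iPS. In both Pkm2 and Ldha the ES replicate 2 array was the highest of the 6. Slc16a3, a lactate exporter, lay at 99.9 and 97.5 for low iPS, 107 and 114 for iPS, and 104 and 141 for ES. This probe was not detected on the low iPS arrays, and its fitted difference from ES of -0.78 did not pass (SE 0.27, adjusted p = 0.169), though it did without ES replicate 1 (0.0388). The other kept probe was detected on 1 array of each line and gave 0.21, so the Slc16a3 probes disagree in sign. Other kept probes also had the opposite sign in low iPS against iPS for Tpi1 (0.37), Pgam1 (0.38) and Pfkm (0.16).

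As a group, 20 of the 29 members were lower and 9 higher in low iPS than in ES, with a median log2 difference of -0.30 against -0.02 over all genes. Against iPS the counts were again 20 lower and 9 higher, with a median of -0.20. Between iPS and ES, 17 were lower in iPS and 12 higher, with a median of -0.14. Each of these medians rested on single arrays. Without ES replicate 2 the low iPS against ES median was -0.0273 and the iPS against ES median 0.18. Without iPS replicate 2 the low iPS against iPS median was 0.04, and without iPS replicate 1 the iPS against ES median was 0.09. The 18 genes from glucose uptake to lactate gave medians of -0.31, -0.19 and -0.16 in the same order, with no call in any comparison when all arrays were used without the block. Whether the group shifted as a whole was not tested.

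**Figure D3:**
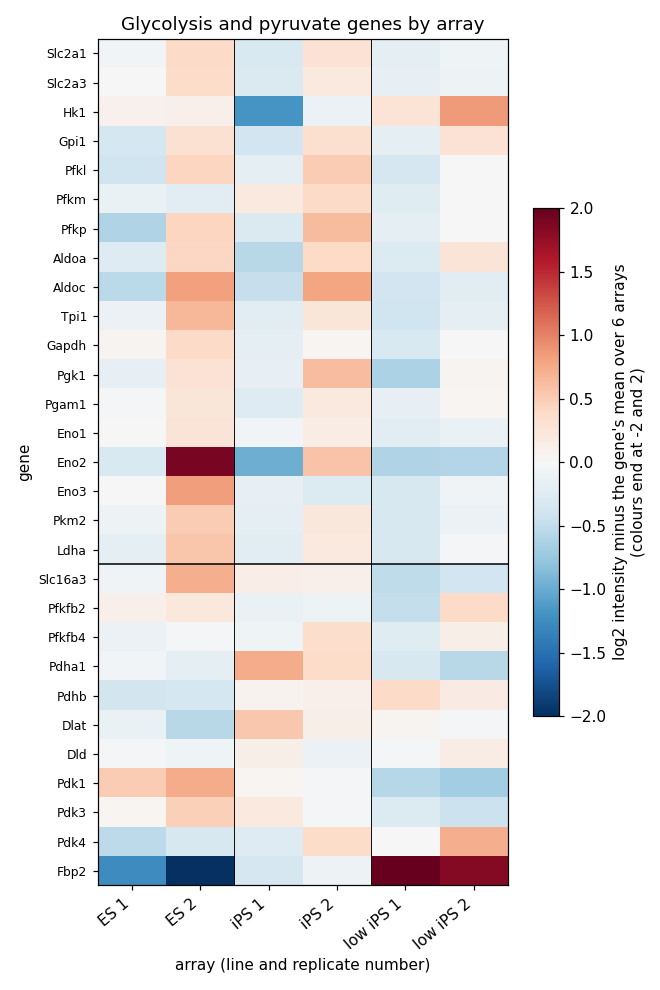
Normalised log2 intensity of each tested gene minus its own mean over the 6 arrays (colour), by array (columns, line and replicate number) and gene (rows, with the 18 genes from glucose to lactate above the line). The replicate 2 arrays of ES and iPS are redder than the replicate 1 arrays over most of the upper block, and Fbp2 and Pdk1 run in opposite directions across the lines.

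Within every line the arrays numbered 2 read higher than those numbered 1 over the pathway. The replicate 2 array was above the replicate 1 array in all 3 lines for 16 of the 18 genes from glucose to lactate, with Pfkm and Eno3 the exceptions. The same held for 3 of the other 11 members, 19 of 29 in all, and for 18.8% of all genes. The median difference between the numbered arrays over the 18 genes was 0.63 in ES, 0.53 in iPS and 0.23 in low iPS, with medians over all genes between -0.01 and 0.00. Eno2 differed most, by 2.20 in ES and 1.55 in iPS against 0.02 in low iPS. Aldoc differed by 1.35, 1.24 and 0.16 in the same order, and Ldha by 0.75, 0.42 and 0.29. Pdha1 and Dlat went the other way in all 3 lines.

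The spread between arrays of a line was therefore wide for these genes. Its median SD over the 18 was 0.376 on the log2 scale, against 0.210 over all genes. The range of the line means exceeded the mean replicate gap for 9 of the 18 genes and for 70.1% of all genes. Taking only arrays of the same number, the median low iPS against ES difference of the 18 was -0.14 for arrays numbered 1 and -0.43 for arrays numbered 2. The low iPS against iPS medians were -0.01 and -0.33. The list of HIF subunits and HIF targets outside glycolysis had 16 genes tested. The replicate 2 array was higher for all 16 in ES, 14 in iPS and 9 in low iPS, and for 8 in all 3 lines. Of all 12631 genes it was higher for 6223 in ES, 6318 in iPS and 6373 in low iPS. Other lists also held genes higher on replicate 2 in all 3 lines. They were 3 of 4 serine synthesis, 3 of 7 pentose phosphate and 5 of 15 other glycolysis and pyruvate genes. The tricarboxylic acid cycle had 5 of 18 and the regulators of glycolytic genes 1 of 5. The median differences of the 16 HIF genes were 0.82 in ES, 0.68 in iPS and 0.23 in low iPS. Bhlhe40, a transcription factor gene, was among the widest, at 1.89, 1.59 and 0.67. Ddit4, a stress-induced inhibitor of growth signalling, differed by 1.76, 1.71 and 0.46. The summed level of the fibroblast and feeder markers, 3 of 9 tested, was 183 and 989.7 on the ES arrays, 299 and 198 on the iPS arrays, and 148 and 105 on the low iPS arrays. It was higher on replicate 2 in ES, where Acta2 alone differed by 2.91, and lower on replicate 2 in the other lines. Its part in these differences was not tested. The labels give no date, batch or culture that the numbers could stand for.

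**Figure D4:**
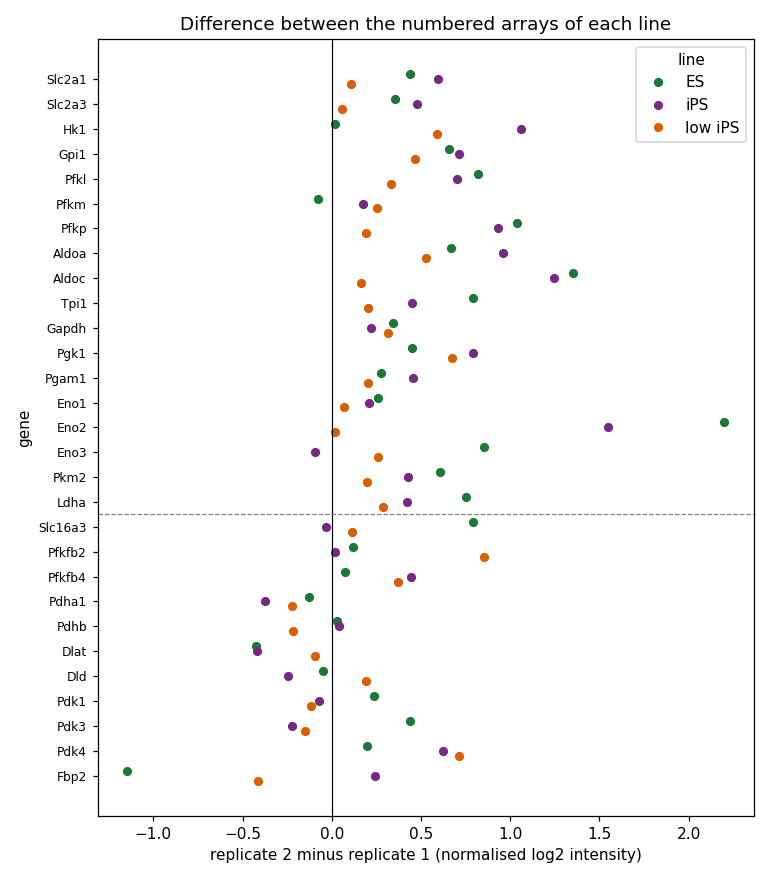
Replicate 2 minus replicate 1 in normalised log2 intensity (horizontal axis) for each tested gene (vertical axis) in ES, iPS and low iPS (colours). Above the dashed line, 16 of 18 genes lie right of 0 in all 3 lines, with medians of 0.63, 0.53 and 0.23.

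Related pathways held few calls. Among 15 tested of 29 other glycolysis and pyruvate genes, none passed between low iPS and ES, and Pdp2 alone rose in low iPS against iPS. Pdp2, a phosphatase that reactivates pyruvate dehydrogenase, lay at 2467 and 3237 (ES), 2022 and 2188 (iPS) and 4702 and 4732 (low iPS), a difference of 1.04 (SE 0.18, adjusted p = 0.0393). It lost the call without iPS replicate 1 (adjusted p = 0.187), iPS replicate 2 (0.106), low iPS replicate 1 (0.199) or low iPS replicate 2 (0.298), and without the detection filter (0.0734). None of 7 tested pentose phosphate genes passed. G6pdx, the X-linked entry enzyme of that path, was closest at -0.83 in low iPS against iPS (SE 0.17, adjusted p = 0.0578, and 0.0385 with the replicate block), followed by H6pd at 0.57 (adjusted p = 0.203). None of 18 tricarboxylic acid cycle genes passed, where Me2 was at -0.62 in low iPS against ES (adjusted p = 0.126) and Suclg2 at -0.96 in iPS against ES (adjusted p = 0.229). None of 4 serine synthesis genes passed, where Shmt2 was at -0.65 and Phgdh, the entry enzyme, at -1.15 in low iPS against ES (adjusted p = 0.181 and 0.224).

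Of the 16 HIF genes none passed, beside the same shares of all genes as for the related pathways. Vegfa, the vessel growth factor, lay at 660.2 and 1170.02 on the ES arrays, 337 and 907 on those of iPS, and 1433 and 1835 on those of low iPS, 1.57 higher in low iPS than in iPS (SE 0.47, adjusted p = 0.160), and the replicate block made it a call (adjusted p = 0.0227). Ndrg1 was 0.83 higher in low iPS than in ES (SE 0.38, adjusted p = 0.294). Egln3, an oxygen sensor, was 0.98 higher in low iPS than in ES (SE 0.45, adjusted p = 0.296), a call only with the block (0.0417). Of 5 tested regulators of glycolytic genes, 1 was called lower in low iPS than in ES, as were 1.91% of all genes. It was Lin28a, an RNA-binding protein of pluripotent cells, at 129 and 99.9 for low iPS, 159 and 160.2 for iPS, and 211 and 186 for ES, with a log2 difference of -1.58 (SE 0.28, adjusted p = 0.0282). Detection failed on 1 low iPS array, and the call was lost without ES replicate 1 (adjusted p = 0.0751), ES replicate 2 (0.0637) or low iPS replicate 2 (0.179). Averaging its probes gave -1.09 and ended the call (0.0752), as did dropping the detection filter (0.0945). With no background correction the difference was -0.81. Against iPS its difference of -1.19 did not pass (adjusted p = 0.0889), and it became a call with the block (0.0194).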

How the data were processed

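RNA of the 6 samples was hybridised to Illumina mouse bead arrays. The deposited table gives, per the file headers, a mean bead intensity and a detection p-value per probe and array, not normalised. The intensities were corrected and brought to the log2 scale here, with limma 3.58.1 in R 4.3.3: normexp correction from the deposited detection p-values with an offset of 16, then quantile normalisation. The filter kept a probe that reached a detection p below 0.05 on 2 or more arrays, and each gene was read from its kept probe with the highest mean. A linear model with the 3 line means was fitted to all 12631 genes, with Benjamini-Hochberg adjustment over all of them and a threshold of 0.05. Gene names were updated through a RefSeq table of GRCm38.p6 (27760 probes by symbol, 7994 by synonym, and 9527 kept the table's name). The precision is limited by 2 arrays per line.

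The numbered arrays of different lines deviated together (correlations 0.323, 0.183 and 0.298 over all genes), so a fit with the replicate number as a block was run as well. This pairing comes from the labels' numbers and the data, since the labels do not say what a number stands for. Members passing any test, and the 10 with the smallest p in each comparison, were named with their array values and a difference between lines. That difference is not always from the comparison that ranked them. The others were given more briefly. From each related list the genes that passed were named, otherwise the 2 with the smallest p. Egln3, a call with the block, was named as well. The members and lists were chosen with earlier results of these data known. The scripts were tested on simulated data. A second deposited table of processed values was not used here, because its identifiers could not be matched to the probes.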

Additional observations from a re-analysis of the deposited data

How the results depend on the processing

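The call of Fbp2 in low iPS against ES held under each of the 15 settings tried, and Pdk1 held in 12 of 15. The count of members called in low iPS against iPS was 1, and it became 2 with an offset of 50 or with no background correction (Pdha1 added), 3 with the replicate block (Hk1 and Pdha1 added) and 0 with no detection filter. Leaving out 1 array at a time gave 1 to 3 members in low iPS against ES (3 without ES replicate 1), 0 to 1 in low iPS against iPS and 0 to 1 in iPS against ES. Over all genes the same gave 55 to 553, 0 to 394 and 14 to 199 calls in that order, against 526, 283 and 102 with all arrays. Each left-out array leaves a line with 1 sample, which is assumed to vary like the others. The members' median changes ranged from -0.50 to -0.0273, from -0.36 to 0.04 and from -0.34 to 0.18. With no detection filter 191, 58 and 24 genes passed, and with the replicate block 911, 649 and 272. The block changed no other call of a member, and the cause of these shifts was not tested. With only the 4 arrays of the lines compared, 44 genes passed in iPS against ES. The Pdhb change in iPS against ES, 0.44 in the main fit, turned to -0.0795 with the mean of its probes. That of Eno2 ranged from -2.10 to 0.10 (without ES replicate 2). The medians within arrays of the same number were added after the data were seen, as were the settings for Pdp2, Lin28a, Aopep and Fancc. The planned use of the second deposited table was not run. Signal over background limits Fbp2 in ES, Slc16a3 in low iPS, Hk1 on iPS replicate 1 and Dld on all arrays.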

Other observations

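Genes beside Fbp2 on chromosome 13 were looked at after its values were seen, using the 4 nearest tested protein-coding genes on each side. In low iPS against ES 2 of these 8 were called, with 4.16% of all genes called. Aopep, an aminopeptidase gene, lay at 135 and 119 (ES), 138 and 154 (iPS) and 197 and 199 (low iPS), a low iPS against ES difference of 1.13 (SE 0.23, limma adjusted p = 0.0403). Fancc, a DNA repair gene, lay at 131 and 132, 129 and 149, and 190.5 and 189.8 in the same order, a difference of 0.93 (SE 0.18, adjusted p = 0.0334), and its other kept probe gave 0.53. Both calls were lost without ES replicate 2, low iPS replicate 1 or low iPS replicate 2 (adjusted p from 0.140 to 0.264). Without ES replicate 1, Fancc was at 0.0569, and without either iPS replicate Aopep was at 0.0559 to 0.0583. Aopep also lost its call without the detection filter (0.0919) and with only the 4 arrays of the lines compared (0.0564). Fancc lost its call with no background correction (0.0504) and with the mean of its probes (0.119). On the same side Ptch1 differed by 0.23 and Ercc6l2 by -0.17, and neither passed. The other side, 8 to 28 genes away, held Zfp808 (0.12), Ctsr (0.11), 4930486L24Rik (0.81) and Dapk1 (-1.06, adjusted p = 0.100), and none passed.

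The table also holds 2 probes under PPM2C, an older name of Pdp1 that the rule for members does not reach. One was detected on 1 array and was not tested. The other, detected on 6 arrays, lay at 121 and 136 (ES), 111 and 119 (iPS) and 116 and 106 (low iPS), with a low iPS against ES difference of -0.55 (SE 0.17, limma adjusted p = 0.141).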
